A study of Mus musculus with 10 samples.

Results

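Open chromatin was examined at the genes of 10 secreted signals that act on growing blood vessels: Vegfa, Vegfb, Vegfc, Angpt1, Angpt2, Slit2, Slit3, Adm, Hgf and Edn1. A peak was assigned to a gene when its summit, the position of strongest signal, lay inside the gene or within 25 kb of it on mm10, and to the promoter when it lay within 1 kb of the transcription start site (TSS). The 9 peak lists held 1444 such peaks among 1071660, and these fell into 251 regions, each reaching 250 bp to either side of a summit, among 184702 in the genome. Slit3 alone held 113 of the 251 regions.

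The epicardium is the cell layer that covers the heart, and it feeds the coronary vasculature with secreted signals and with cells. Epicardial cells that undergo epithelial-to-mesenchymal transition become epicardium-derived cells (EPDCs), which enter the myocardium and form pericytes, smooth muscle cells and fibroblasts. Vascular endothelial growth factors act through receptor tyrosine kinases on endothelial cells, angiopoietins through the receptor Tek, Slit proteins through Robo receptors, adrenomedullin through Calcrl with Ramp co-receptors, hepatocyte growth factor through Met and endothelin 1 through Ednra and Ednrb. The assay for transposase-accessible chromatin with sequencing (ATAC-seq) marks DNA that a transposase can reach, and a peak at a gene does not measure its RNA.

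All cells came from embryonic hearts of the genotype Rosa26tdTomato;Wt1CreERT2/+ on a label of C57BL/6J, with tamoxifen given at E9.5, so that cells with an active Wt1 driver at that time and their descendants carried tdTomato. Epicardial cells were sorted as CD31-tdTomato+PDPN+ from pools of 6 hearts at E11.5 or 4 hearts at E17.5, with 3 biological replicates each. EPDCs were sorted as CD31-tdTomato+PDPN- in 3 biological samples, of which 1 was from E12.5 and the other 2 were E13.5 pools of 4 to 13 hearts, and the 2 technical replicates of E13.5 sample 2 shared 1 list. Each sort took 40000 to 50000 live cells. These pool sizes and cell numbers are those of the labels, and the methods of the study give other ranges for the E13.5 pools and for the cells used. Because EPDCs were of other days than either epicardial stage, cell population and day cannot be told apart. The lists differed in make-up as well. EPDC lists held 252 to 268 summits off the autosomes, X and Y, and every epicardial list held 0. The highest -log10 p of a peak was 20589.5 to 70107.4 in EPDC lists and 559 to 891 in epicardial lists. Processing of the lists therefore cannot be told apart from cell population either.

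The lists held 94909 to 142743 peaks on the autosomes, X and Y, with the fewest in E17.5 replicate 1 and the most in E11.5 replicate 2. Accessibility is given as the rank percentile of a peak by its -log10 p among all peaks of the same library, from just above 0 for the weakest peak to 100 for the strongest, and as 0 where no peak was called. Promoters of 13 epicardial marker genes had a mean percentile of 72.9 to 75.9 across the E11.5 libraries and 80.1 to 85.8 at E17.5, against 48.6 to 58.7 in EPDCs, and those of 8 mesenchymal genes stood at 58.1 to 62.3, 63.7 to 71.8 and 71.7 to 79.6. Single markers went both ways: at E17.5, Krt8, Krt19 and Msln were called higher and Wt1, Bnc1 and Pdpn lower. In EPDCs, 8 of the 13 were called lower, while Wt1, Tcf21, Tbx18, Bnc1 and Pdpn were not called. Among mesenchymal genes, Postn and Twist1 were called higher in EPDCs and Dcn lower. Pecam1, Cdh5, Tie1 and Emcn of the 9 endothelial markers, Myh6 and Myl2 of the 8 cardiomyocyte markers and 7 of the 8 blood markers had no promoter peak in any library. Promoters of Tek, Kdr, Erg, Cldn5, Tnnt2, Nkx2-5 and Ryr2, however, had a peak in all 9. From E11.5 to E17.5, Erg (-13.0 points), Cldn5 (-17.4), Tnnt2 (-24.8) and Actc1 (-45.6) were called lower, and Myl7 (33.2) higher, and Egfl7 had a peak at E17.5 alone. In EPDCs, Myh7 and Myl7, with a peak in all 6 epicardial libraries, had none, the blood marker Cd68 was called lower and no endothelial, cardiomyocyte or blood marker was called higher. Over these lists, which count absent peaks as 0, the mean percentile per library was 36.6 to 44.1 for endothelial, 25.8 to 41.8 for cardiomyocyte and 0 to 9.99 for blood markers, and their part in the results was not tested. In a bulk sort, fewer open cells and less opening per cell cannot be told apart.

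The sequences below carry the largest changes described in the following paragraphs: the 3 regions with the largest rise and the 3 with the largest fall from E11.5 to E17.5, the 2 with the largest rise in EPDCs, and the upstream DNA of the promoter that rose from E11.5 to E17.5, Adm. Each is 200 bases of GRCm38.p6, the assembly behind mm10, written 5′ to 3′. Regions are centred on the summit and named by distance from the TSS, and the promoter window ends at the base before the TSS. Capitals mark exact matches, on either strand, to 6 short motifs. These were the hypoxia response core, spelled ACGTG, and the letters known for binding by AP-1 factors, spelled TGANTCA. Letters for the TEAD family were GGAATG, those for the GATA family of zinc finger proteins were AGATAA, those for T-box proteins were AGGTGT and those for MAF proteins were TGCTGA.
Slit3 at 346 kb, chr11:35466715-35466914, + strand: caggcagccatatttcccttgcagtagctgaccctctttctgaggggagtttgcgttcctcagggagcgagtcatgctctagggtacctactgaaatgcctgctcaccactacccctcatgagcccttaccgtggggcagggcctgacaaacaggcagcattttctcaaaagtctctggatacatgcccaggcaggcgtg
Slit3 at 286 kb, chr11:35407425-35407624, + strand: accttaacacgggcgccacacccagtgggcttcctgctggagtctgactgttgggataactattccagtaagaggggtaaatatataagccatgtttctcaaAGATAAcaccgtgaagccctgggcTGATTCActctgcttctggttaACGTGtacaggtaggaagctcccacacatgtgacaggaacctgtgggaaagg
Slit3 at 295 kb, chr11:35415981-35416180, + strand: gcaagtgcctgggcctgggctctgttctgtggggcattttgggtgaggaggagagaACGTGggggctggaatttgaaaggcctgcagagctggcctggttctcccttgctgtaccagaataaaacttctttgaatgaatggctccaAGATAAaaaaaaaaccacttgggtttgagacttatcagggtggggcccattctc
Slit3 at 528 kb, chr11:35649201-35649400, + strand: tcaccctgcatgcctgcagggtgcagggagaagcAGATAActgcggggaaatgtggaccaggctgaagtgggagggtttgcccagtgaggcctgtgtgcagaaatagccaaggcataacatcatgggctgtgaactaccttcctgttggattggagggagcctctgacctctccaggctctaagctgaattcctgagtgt
Slit2 at 248 kb, chr5:48230688-48230887, + strand: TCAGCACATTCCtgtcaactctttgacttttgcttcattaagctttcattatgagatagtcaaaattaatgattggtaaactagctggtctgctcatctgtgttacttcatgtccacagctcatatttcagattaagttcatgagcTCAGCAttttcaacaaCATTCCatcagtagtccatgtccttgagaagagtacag
Slit3 at 148 kb, chr11:35269180-35269379, + strand: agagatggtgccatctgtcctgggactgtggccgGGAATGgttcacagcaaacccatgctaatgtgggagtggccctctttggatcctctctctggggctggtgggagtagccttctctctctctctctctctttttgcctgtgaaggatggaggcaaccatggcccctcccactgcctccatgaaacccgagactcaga
Vegfc at 11.9 kb, chr8:54089379-54089578, + strand: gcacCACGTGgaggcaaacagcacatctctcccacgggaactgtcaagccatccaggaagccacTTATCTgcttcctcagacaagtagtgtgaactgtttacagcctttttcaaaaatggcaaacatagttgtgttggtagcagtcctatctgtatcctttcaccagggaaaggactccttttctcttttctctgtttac
Vegfc at 22.6 kb, chr8:54100152-54100351, + strand: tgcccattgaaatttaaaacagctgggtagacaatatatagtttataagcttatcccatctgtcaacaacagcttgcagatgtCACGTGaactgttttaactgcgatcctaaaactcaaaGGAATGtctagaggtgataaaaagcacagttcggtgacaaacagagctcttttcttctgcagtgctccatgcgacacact
Adm upstream of its start, chr7:110627461-110627660, + strand: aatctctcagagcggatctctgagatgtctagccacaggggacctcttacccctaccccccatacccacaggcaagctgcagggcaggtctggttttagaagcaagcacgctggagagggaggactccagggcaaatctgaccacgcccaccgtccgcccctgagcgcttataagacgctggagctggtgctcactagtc

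Both Vegfc windows held CACGTG, in which the ACGTG core reads on both strands and overlaps itself. The core was present in 12.9% of the 200-base centres of all 154059 tested regions, and 2 of the 3 rising Slit3 windows held it as well. The Slit2 window at 248 kb, which lost its peak by E17.5, held the TEAD letters and the MAF letters at 2 places each. TEAD letters occurred in 19.3% of region centres and MAF letters in 20.9%. The Adm upstream window held none of the 6 motifs, and neither did the Slit3 window at 346 kb. These matches are descriptions of letters and not of binding.

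Every one of the 10 promoters was accessible in all 9 libraries, and the comparison of E17.5 with E11.5 asked which of them changed as the epicardium matured. The Angpt2 promoter fell most, the Hgf promoter fell as well, and the Adm promoter rose. Smaller falls passed the test at Vegfc and Edn1, while Vegfa, Vegfb, Angpt1, Slit2 and Slit3 did not pass it. Thus 1 of 10 promoters was called higher and 4 lower, against 3.83% higher and 14% lower of all 14922 protein-coding promoters tested (limma, Benjamini-Hochberg adjusted p below 0.05). With equal numbers of top peaks from every library 1 was higher and 2 lower, against 14.6% and 10.4% of all promoters, and the share of all promoter calls that were rises went from 21.4% to 58.5% (72.3% by log2 score scaled to the library total).

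Angpt2 encodes a ligand that modulates the angiopoietin receptor Tek and is known for loosening vessel walls. The gene is ENSMUSG00000031465 at chr8:18690263-18741562 on the minus strand, and its promoter stood at percentiles of 89.6, 87.4 and 80.7 at E11.5 but at 57.4, 59.2 and 63.7 at E17.5. The groups did not overlap, and the difference was -25.8 points (SE 3.87, adjusted p = 5.5e-04). EPDC values of 78.8, 69.1 and 76.5 lay between the epicardial stages. The number of fragments over the summit, solved from the fold enrichment and p of the peak, was 154, 139 and 96 in the E11.5 libraries against 38, 55 and 59 in the E17.5 libraries.

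Hgf encodes hepatocyte growth factor, a mesenchymal mitogen for epithelial and endothelial cells. Its promoter percentiles in E11.5 libraries were 84.5, 82.3 and 82, those in E17.5 libraries 60.3, 72.6 and 56.8, and the promoter differed by -19.7 points (SE 3.90, adjusted p = 0.0037). The 3 EPDC libraries, at 83.1, 80.3 and 79.9, were all above the 3 E17.5 libraries. Ranked by fold enrichment, the fall was -13.2 points and the call was lost (adjusted p = 0.058).

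Adm encodes adrenomedullin, a peptide that acts on endothelial and lymphatic cells. It had the lowest E11.5 promoter percentiles of the 10 genes, 33.5, 35.1 and 44.2, and E17.5 values of 55.9, 60.8 and 66.6. The rise was 23.5 points (SE 5.92, adjusted p = 0.015), and it lost its call without E11.5 replicate 1, E11.5 replicate 2 or E17.5 replicate 3 (adjusted p up to 0.072). EPDC libraries stood at 65, 70.4 and 82, 2 of them above every epicardial library.

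The Vegfc promoter, with 91.9, 93 and 89.9 at E11.5 against 84.3, 87.8 and 83.5 at E17.5, fell by 6.41 points (SE 1.67, adjusted p = 0.018). The Edn1 promoter, with 89.6, 90.8 and 91 at E11.5 against 80.2, 85.1 and 88.2 at E17.5, fell by 5.99 points (SE 1.92, adjusted p = 0.047). Vegfc encodes the main lymphangiogenic growth factor and Edn1 the vasoconstrictor peptide endothelin 1. The Vegfc call was lost without any of 4 epicardial libraries (E11.5 replicates 1 and 2, E17.5 replicates 1 and 3) and the Edn1 call without any library except E17.5 replicate 3, with adjusted p up to 0.087 and 0.15. The Vegfc call was also lost by log2 score scaled to the library total and with equal numbers of top peaks, and the Edn1 call in 6 of 8 other settings. Slit3, which encodes a guidance ligand, had the highest mean promoter percentile of the 10 genes, at 92.4 to 97.6 over the 9 libraries, and Slit2 stood at 86 to 91.4.

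**Figure D1:**
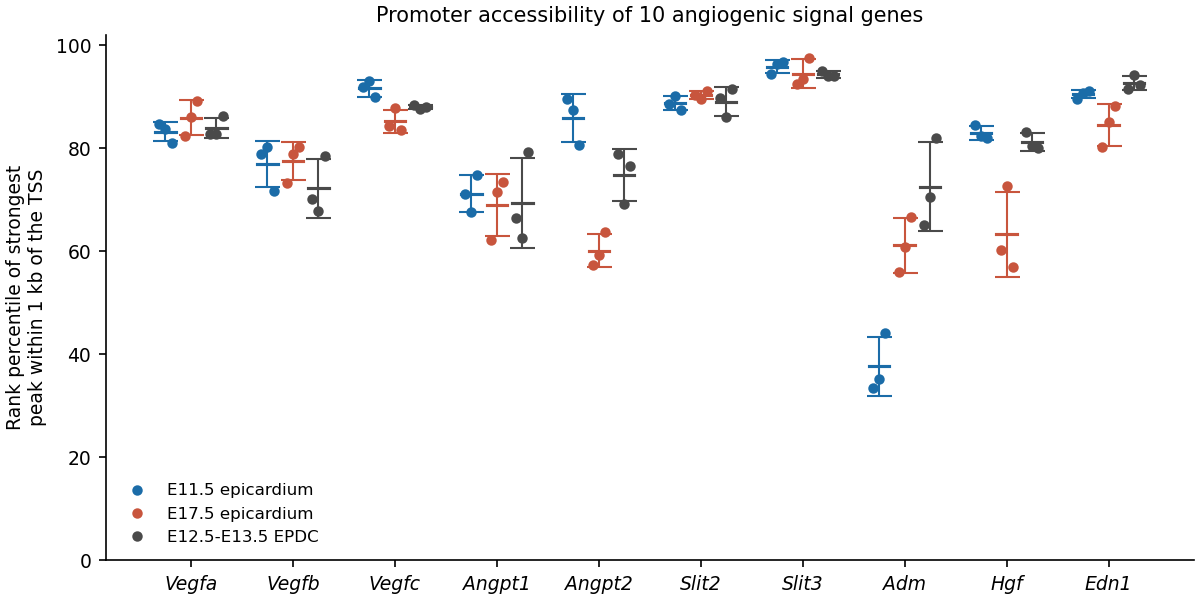
Rank percentile of the strongest peak within 1 kb of the TSS for the 10 genes, 1 point per library, with bars for the mean and SD of each group of 3. Adm rises from 33.5 to 44.2 at E11.5 to 55.9 to 66.6 at E17.5, and Angpt2 and Hgf are lower at E17.5 than in every E11.5 library.

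A rank depends on the local background that the peak caller used, so fragments at the summit were also divided by the genome-wide background of the library. At the median of 10205 promoters this ratio was 1.39-fold higher at E17.5 than at E11.5, a log2 shift of 0.47 that is subtracted here. Relative to it, the Angpt2 promoter changed by -1.49 (log2), Hgf by -1.03 and Adm by 0.45. Vegfa, Vegfb, Slit2 and Slit3 lay within 0.16 of the shift. Before the shift was subtracted, the ratios did not overlap between the stages at any of these 7 promoters. The Vegfc and Edn1 ratios overlapped between the stages, with relative log2 values of -0.31 and -0.44.

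The same comparison was made over whole loci, promoters included. Of the 251 regions, 210 were called in at least 2 of the 9 libraries and entered the fit over all 154059 such regions. A region or promoter that passed this filter only through the group where it was high had to differ, so its values are given as a description, with no SE or p. Counts of calls include such regions, at these genes and over all tested regions alike. At E17.5, 28 of the 210 were higher and 38 lower than at E11.5, or 13.3% and 18.1%, against 9.12% higher and 24.9% lower of all tested regions. With equal numbers of top peaks from every library, 36 of 167 rose and 22 fell (21.6% and 13.2% against 16.2% and 19.3% of all), so the share of calls that were rises went from 42.4% to 62.1% (from 26.8% to 45.6% over all regions). The median difference was -3.50 points at these loci and -3.96 over all regions.

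**Figure D2:**
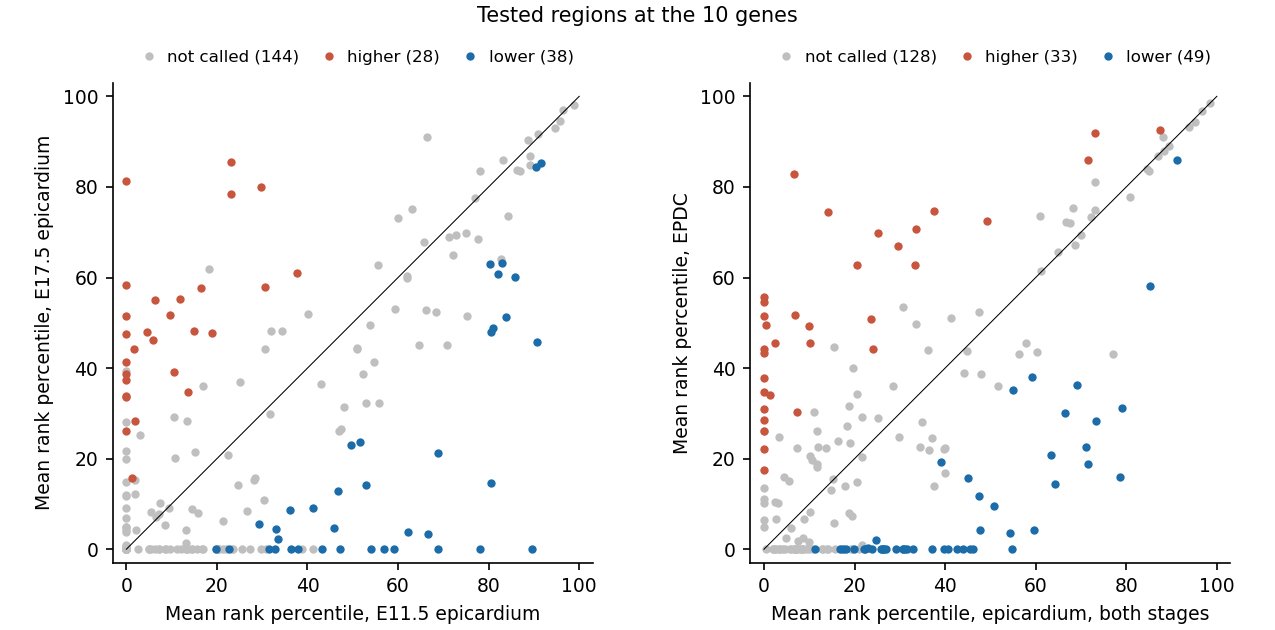
Mean rank percentile of the 210 tested regions at the 10 genes, E17.5 against E11.5 epicardium (left) and EPDCs against both epicardial stages (right), coloured by the limma call at an adjusted p below 0.05. Points on the axes are regions with no peak in any library of a group, and 28 regions rise and 38 fall in the left panel, 33 and 49 in the right.

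Slit3 gained and lost intronic regions between the stages. Of 98 tested, 19 rose and 15 fell, or 19.4% and 15.3% against 9.12% and 24.9% of all tested regions, and all 34 were intronic. Regions called in the E17.5 libraries alone, such as those at 346 and 295 kb, are among the 19. Slit3 encodes a large secreted ligand of Robo receptors and spans chr11:35121224-35708507 on the plus strand. The largest fall was the intronic region 528 kb from the TSS (chr11:35649051-35649551), at percentiles of 85.8, 89.9 and 92.7 at E11.5. No peak was called there in any E17.5 library, and the difference was -89.5 points (SE 7.73, adjusted p = 5.0e-05). At E11.5 its summit held 106, 128 and 137 fragments. EPDC libraries kept it at 61.5, 39.8 and 30.3.

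The largest rise was the intronic region 346 kb from the TSS (chr11:35466565-35467065), with no peak in any E11.5 or EPDC library and percentiles of 80, 82.2 and 82 at E17.5 (81.4 points). It held 64, 113 and 104 fragments there. The region at 286 kb (chr11:35407275-35407775) rose by 62.4 points, and that at 295 kb (chr11:35415831-35416331), called in the E17.5 libraries alone, was 58.3 points higher. At 286 kb the E17.5 libraries stood at 81.6, 88.6 and 86.6 and the E11.5 libraries at 34.1, 0 and 35.5. The region at 148 kb (chr11:35269030-35269530) went the other way, from 63.5, 70.5 and 72.2 at E11.5 to no peak at E17.5, a fall of 68.7 points. The calls at 528, 286 and 148 kb held without each library in turn. Slit3 gave 7 of the 10 regions that were called in all 3 E17.5 libraries and in no other library, and 1 of the 5 called in that way at E11.5. These 10 and 5 were 4.76% and 2.38% of the 210 tested regions, against 3.56% and 4.48% of all.

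**Figure D3:**
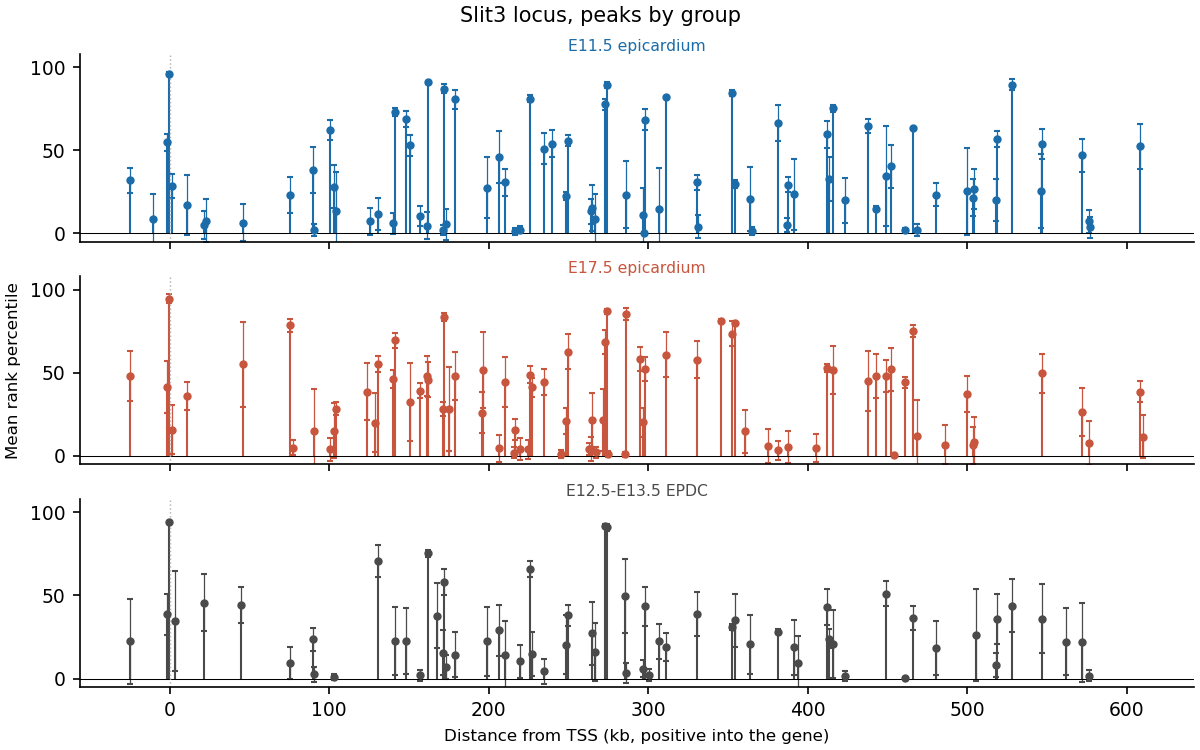
Mean rank percentile of every Slit3 region in E11.5 epicardium, E17.5 epicardium and EPDCs against its distance from the TSS in kb, with bars for the SD over 3 libraries. The promoter is high in all 3 groups, the region at 528 kb is absent at E17.5, and the region at 346 kb is present at E17.5 alone.

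At Slit2, the paralogue of Slit3, 3 of 16 tested regions fell and 1 rose, or 18.8% and 6.25% against 24.9% and 9.12% of all tested regions. The intronic region 248 kb from the TSS (chr5:48230538-48231038) had percentiles of 76.7, 80.5 and 77.3 at E11.5, no peak at E17.5, and 35.4, 4.52 and 18.1 in EPDCs. The difference was -78.2 points (SE 7.65, adjusted p = 9.1e-05), and 65, 75 and 63 fragments covered its summit at E11.5. The intronic region at 21 kb (chr5:48003854-48004354) rose from 25.1, 11.9 and 12.7 to 55.5, 60.5 and 56.8, a rise of 41 points (adjusted p = 4.8e-04), and no EPDC library had a peak there. It also lies within 4930518C09Rik.

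At Hgf the fall of the promoter was accompanied by a larger fall in an intron. The region 6.24 kb from the TSS (chr5:16559485-16559985) stood at 74.7, 81.9 and 84.6 at E11.5 but at 14.7, 29.5 and 0 at E17.5, with 58, 76 and 80 fragments against 13, 24 and no called peak. The difference was -65.7 points (SE 7.86, adjusted p = 2.6e-04), and EPDCs lay between at 56, 44.1 and 57.2. Of the 5 tested Hgf regions 2 fell and none rose from E11.5 to E17.5, or 40% and 0% against 24.9% and 9.12% of all tested regions.

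Angpt2 fell at 6 of 19 tested regions, or 31.6% against 24.9% of all, and rose at none, against 9.12% of all. The largest fall lay 63.5 kb from the TSS, downstream of the gene (chr8:18677770-18678270), from 51.3, 60.7 and 65.5 at E11.5 to no peak at E17.5, a fall of 59.2 points (SE 5.48, adjusted p = 6.2e-05). In EPDCs the same region was at 67.7, 64.3 and 69.2, and 2 of these libraries were above all 6 epicardial ones. Angpt2 lies inside Mcph1 on the opposite strand, and its regions therefore lie in both genes. Angpt1, which encodes the ligand that activates Tek, had 2 falls among 15 tested regions (13.3%) and no rise. The fall at an intronic region called in the E11.5 libraries alone is a description. The other call, at an intronic region with a peak in every library, was lost without any of 7 libraries, all E17.5 libraries among them (adjusted p up to 0.15).

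At Vegfa, the central endothelial growth factor, 1 of 15 tested regions rose and 2 fell (6.67% and 13.3% against 9.12% and 24.9% of all). The rise lay 28 kb from the TSS, downstream of the gene (chr17:46004145-46004645), from 6.73, 20.8 and 1.09 at E11.5 to 38.7, 60.6 and 56 at E17.5 (42.2 points, adjusted p = 0.0021), and its call was lost when overlapping intervals replaced summits. The upstream region at 17467 bp (chr17:46049586-46050086) had percentiles of 36.6, 56.2 and 49 at E11.5 and no peak at E17.5, a fall of 47.3 points (SE 6.23, adjusted p = 3.9e-04). A neighbour 19.2 kb upstream (chr17:46051298-46051798) stood at 57.1, 74.9 and 67 at E11.5 but at 90.1, 94.2 and 88.9 at E17.5. These groups did not overlap, yet the difference of 24.7 points missed the threshold (SE 9.19, adjusted p = 0.067). The intronic region at 4.66 kb fell by 28 points, from 51.1, 52.3 and 51.4 to 17.2, 26.2 and 27.3.

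Vegfb and Adm sit in gene-dense DNA. Of the 10 Vegfb regions 5 lay at promoters of other genes, among them Fkbp2, Plcb3, Nudt22 and Trpt1, and 2 of 13 Adm regions did. Both rises at Vegfb lay downstream within Plcb3: the region 23.2 kb away (chr19:6964178-6964678) had no peak at E11.5 or in EPDCs and 41.7, 54.1 and 47 at E17.5 (47.6 points). At Adm the upstream region at 8.25 kb (chr7:110619157-110619657) fell from 66.4, 73.3 and 66.9 to 0, 48 and 15.8, a fall of 47.6 points (adjusted p = 0.0094), while the promoter rose. Edn1 had 2 rises and 3 falls among 10 tested regions (20% and 30% against 9.12% and 24.9% of all). The exonic region at 5.74 kb from its TSS (chr13:42306962-42307462) was called at 20.1, 40.3 and 40.6 at E17.5 and in no E11.5 or EPDC library (33.7 points), and the other Edn1 calls each failed without at least 1 library.

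The second comparison set EPDCs against the mean of both epicardial stages, and it shares the epicardial libraries with the first. No promoter was lower and 2 of 10 were higher, Adm and Edn1, against 9.63% higher and 15.2% lower of all promoters. The share of all promoter calls that were rises was 38.8%, but 56.6% by log2 score scaled to the library total and 70.8% by fold enrichment. Adm rose by 23.1 points (SE 5.13, adjusted p = 0.0059), although its lowest EPDC library, at 65, was below the highest E17.5 library, at 66.6. Edn1, at 91.5, 94.2 and 92.2 in EPDCs, was above all 6 epicardial libraries, by 5.14 points (SE 1.66, adjusted p = 0.039); that call was lost without any of 7 libraries (adjusted p up to 0.18). The Adm fragment ratio overlapped between the groups, at 0.62 (log2) above the median of 4689 promoters. Hgf was 8.04 points higher and did not pass the test (adjusted p = 0.10), although it did with equal numbers of top peaks (adjusted p = 0.045).

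Among the 210 tested regions, 33 were higher and 49 lower in EPDCs, or 15.7% and 23.3%, against 18.9% and 22.1% of all tested regions. Slit3 held 31 of the 49 lower regions. Without Slit3, 25 of 112 regions were higher and 18 lower (22.3% and 16.1%). With equal numbers of top peaks, 36 of 167 tested regions at the 10 genes were higher and 46 lower, or 21.6% and 27.5% against 24.7% and 24.5% of all.

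At Vegfc, 8 of the 11 tested regions were higher in EPDCs (72.7% against 18.9% of all tested regions), all of them intronic, and none was lower. The tested regions include some with peaks in the E13.5 EPDC libraries alone. These passed the filter only through EPDCs and could differ only upwards, so the share is a description. The region 11.9 kb from the TSS (chr8:54089229-54089729), whose sequence with CACGTG is given above, had percentiles of 78.3, 85.1 and 85.4 in EPDCs. Epicardial libraries stood at 0, 8.85 and 31 at E11.5 and had no peak there at E17.5, so the groups did not overlap. The difference was 76.3 points (SE 6.86, adjusted p = 5.5e-05; two-sided exact permutation test of 3 against 6 libraries p = 0.0119, the smallest that design allows). EPDC summits held 78, 126 and 273 fragments, on a genome-wide background of 4.19, 4.26 and 10.9 fragments.

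A second Vegfc region with CACGTG, 22.6 kb from the TSS (chr8:54100002-54100502), stood at 63.2, 77.3 and 83.1 in EPDCs. It was at 0, 8.85 and 0 at E11.5 but at 34.4, 35.5 and 5.84 at E17.5, and the difference was 60.4 points (SE 7.93, adjusted p = 4.1e-04). The region at 37.1 kb (chr8:54114501-54115001) had 63.9, 69.1 and 76.4 in EPDCs against 30.4, 35.7 and 57.6 at E11.5, with 0, 27.3 and 0 at E17.5. All 3 of these EPDC calls held without each library in turn. The Vegfc promoter itself differed by -0.36 points (SE 1.44, adjusted p = 0.88).

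A peak in all 3 EPDC libraries and in no epicardial library was found at 8 of the 210 tested regions, or 3.81%, against 3.88% of all tested regions. They were 2 each at Angpt1 and Slit3 and 1 each at Angpt2, Slit2, Hgf and Edn1. At Angpt1 the intronic region 41.3 kb from the TSS (chr15:42635437-42635937) was at 57, 49.2 and 60.8 (55.7 points), and that at 7.4 kb (chr15:42669327-42669827) at 28.8, 45.4 and 56 (43.4 points). At Hgf the region 88 kb from the TSS, downstream of the gene (chr5:16641199-16641699), was at 47.3, 50.3 and 66 (54.5 points). At Angpt2 an exonic region 35.9 kb from the TSS (chr8:18705429-18705929) was at 37.4, 50.3 and 66.7 (51.4 points). These 4 passed the filter through the EPDC libraries alone, so their values are likewise a description.

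Vegfa moved in both directions in EPDCs, at 3 regions each of 15 tested, or 20% in each direction against 18.9% higher and 22.1% lower of all. The upstream region at 19.2 kb, open in all 6 epicardial libraries, was at 38.3, 0 and 9.72 in EPDCs, which made it 62.7 points lower (SE 7.96, adjusted p = 3.4e-04). The intronic region at 4.66 kb (chr17:46027457-46027957) was at 67.1, 76.3 and 80.5 in EPDCs and 37.1 points higher (SE 4.69, adjusted p = 3.1e-04), and a region 4.24 kb upstream was 44.8 points higher. Thus the intronic region was lowest at E17.5 and highest in EPDCs, with no overlap among the 3 groups. By fragments over the genome-wide background it stood at 23.2, 24.8 and 24.7 at E11.5 against 23.2, 23.3 and 25.1 at E17.5. This was a ratio of 0.98 with overlap (exact permutation p = 1.0) before the shift of all promoters was subtracted. Relative to that shift the log2 change was -0.49. The E12.5 EPDC library, at 24.3, overlapped the epicardial libraries before subtraction, while the E13.5 libraries stood at 41.1 and 42.2. Relative to the EPDC shift of all promoters, a log2 of -0.40, the region was higher in EPDCs by 0.98 (log2). Angpt2 had 3 regions higher and 4 lower of 19 (15.8% and 21.1%, near the 18.9% and 22.1% of all). Its intronic region at 6.17 kb (chr8:18735144-18735644) was at 42.4 to 77.8 over the epicardial libraries and at 13.1, 0 and 0 in EPDCs, 55.2 points lower.

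**Figure D4:**
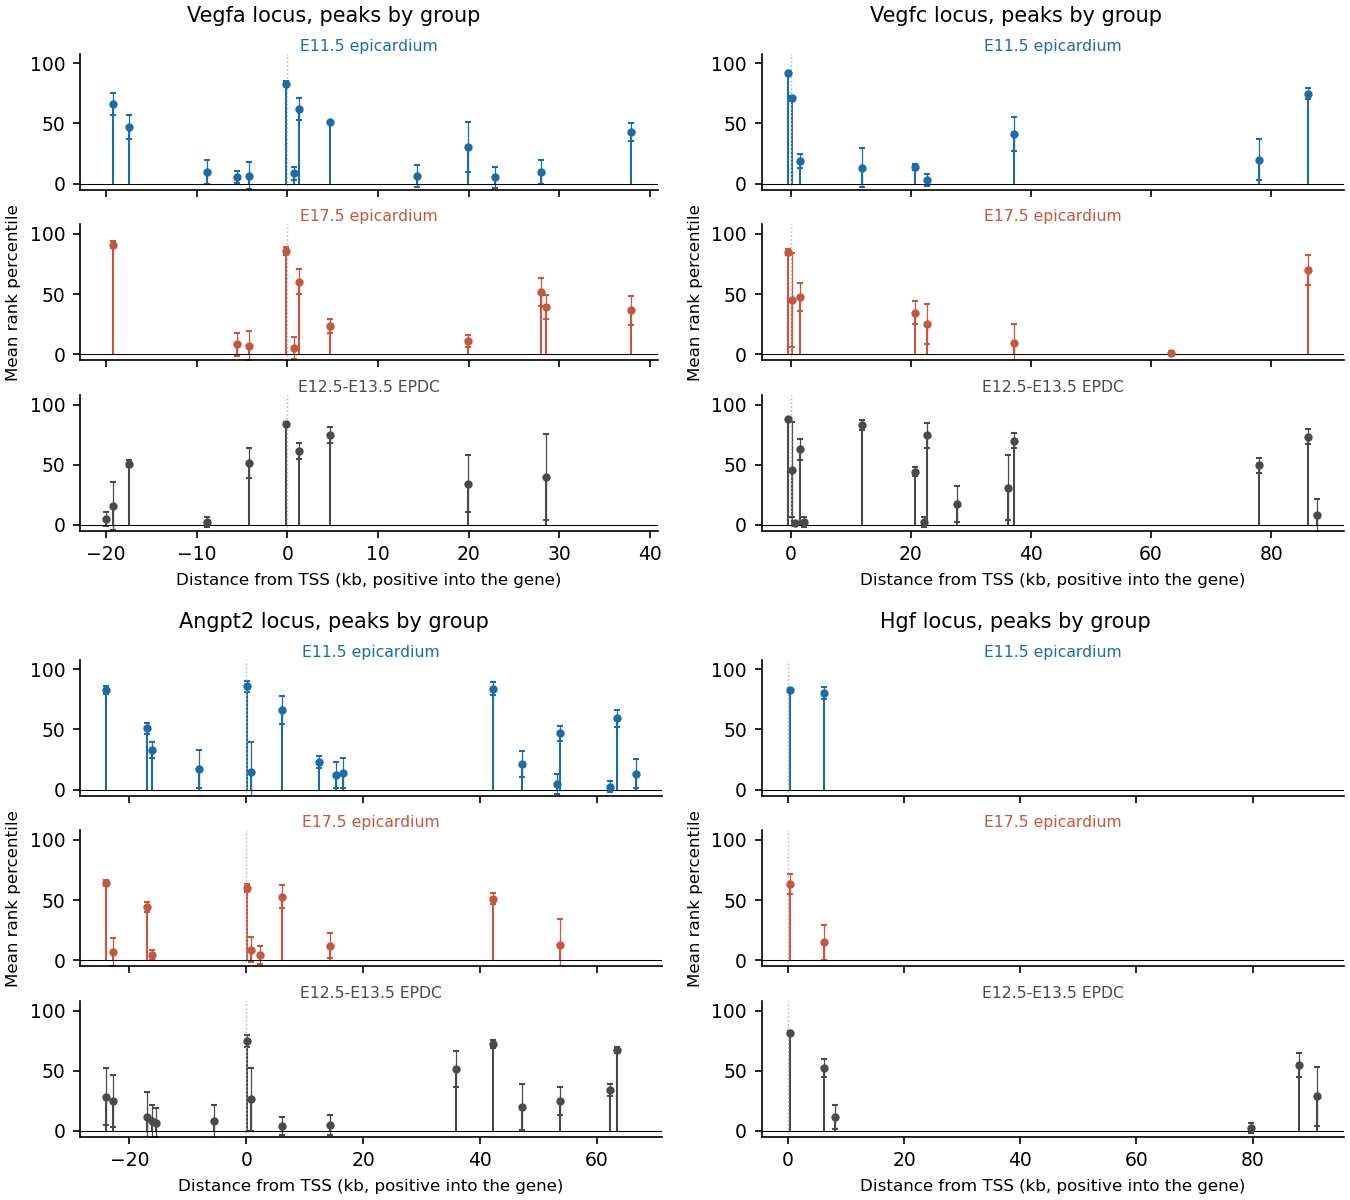
Mean rank percentile of regions at Vegfa, Vegfc, Angpt2 and Hgf by distance from the TSS in kb, 1 row per group, with bars for the SD over 3 libraries. Vegfc has intronic peaks at 11.9 and 22.6 kb that are strongest in EPDCs, and the Hgf peaks at 88 and 91.2 kb appear in EPDCs only.

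Slit3 held the most regions that were lower in EPDCs, 31 of 98 tested (31.6% against 22.1% of all regions), and 8 that were higher (8.16% against 18.9%). The intronic region at 438 kb (chr11:35558904-35559404) was at 34.3 to 69.5 over the 6 epicardial libraries and had no peak in EPDCs (54.8 points lower). The region at 311 kb (chr11:35432012-35432512) was at 47.1 to 82.4 in epicardium and at 23.9, 23.4 and 9.26 in EPDCs, 52.7 points lower (adjusted p = 2.5e-04). In the opposite direction, the region at 44.7 kb (chr11:35165703-35166203) was at 33.3, 44.1 and 55.1 in EPDCs and in no epicardial library. The promoter percentile of Slit3 differed by -0.83 points (SE 1.05, adjusted p = 0.60).

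The regions that fell between the epicardial stages were mostly present in EPDCs, at these genes and over all tested regions alike, and the difference in shares was not tested. Of the 38 that fell at the 10 genes, 27 had a peak in all 3 EPDC libraries (71.1%) and 7 in none, against 60.3% and 20.6% of the 38343 that fell genome-wide. Of the 28 that rose, 6 were in all 3 EPDC libraries (21.4%) and 15 in none (53.6%), against 24.2% and 56.5% of the 14056 that rose. EPDC days lie between the epicardial days, and day, cell population and processing of the lists were not separated here.

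Counting peaks gives a second view of each locus. Slit3 held 5.81 to 6.38 peaks per 10000 at E11.5, 7.06 to 7.63 at E17.5 and 4.56 to 4.93 in EPDCs, with no overlap among the groups. Slit2 went from 1.01 to 1.12 at E11.5 down to 0.53 to 0.74 at E17.5, and Angpt1 from 0.75 to 0.98 down to 0.37 to 0.55. In all, 3 loci were higher at E17.5 without overlap (Vegfb, Slit3 and Adm) and 2 lower (Slit2 and Angpt1), where 27.8% and 14% of 19428 protein-coding genes with a peak were. The two-sided exact permutation p was 0.10 at each of the 5, the smallest that 3 against 3 allows. The count was 4 at a -log10 q of at least 5, where Adm and Angpt1 overlapped and Angpt2 was lower without overlap, and 4 by intervals, where Adm and Slit2 overlapped and Angpt2 was again lower. Shares of all genes are not given for these settings. Against epicardium, Slit3 was the 1 locus whose EPDC rates did not overlap, and it was lower (exact permutation p = 0.0119), with 6.01% of genes higher and 8.31% lower in this way. With equal numbers of top peaks the Slit3 rates overlapped (exact permutation p = 0.167), and Angpt1 was the 1 locus that did not overlap, with higher EPDC rates (exact permutation p = 0.0119).

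Promoters of 32 other genes of these pathways were read in the same fit, and 29 were tested. From E11.5 to E17.5, 8 were lower and 1 higher, where 14% and 3.83% of all promoters were. Edn3, a further endothelin, fell from 71, 72.2 and 72 to 18.5, 20.1 and 1.59 (-58.3 points, adjusted p = 9.6e-05). The endothelin receptors fell too, Ednra by 20.4 points (adjusted p = 3.6e-05) and Ednrb by 23.2 points (adjusted p = 0.0017), as did Angpt4 by 36 points and Angptl4 by 25.1 points (adjusted p = 0.0083 for each; -11.5 points for Angptl4 with its strongest annotated start). Thus Ednra, Ednrb, Edn3 and, by a small margin, Edn1 were all lower at E17.5 (ranked by fold enrichment, the differences of Ednrb and Edn1 were -7.19 and -2.84 points and not called, and Edn1 was not called either by log2 score scaled to the library total, with equal numbers of top peaks or at a -log10 q of at least 5, with adjusted p of 0.30, 0.117 and 0.073), whereas Edn2 was at 93.8, 96.3 and 95.3 at E11.5 but at 91.9, 93.6 and 94.3 at E17.5. Hif1a, a hypoxia-inducible transcription factor, was 57.6 points higher at its most upstream annotated start, where it had a peak in 1 E11.5 library and no EPDC library, but the difference was -0.08 points with its strongest annotated start.

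In EPDCs, 4 of the 29 promoters were higher and 4 lower than in epicardium, beside 9.63% and 15.2% of all promoters. Edn2 fell most, to 67.1, 40.7 and 50.9 (-41.3 points, adjusted p = 9.8e-06). Nrp1, a co-receptor for vascular endothelial growth factors, rose by 12.6 points (adjusted p = 0.028), with every EPDC library above every epicardial library. Tie1, Robo1 and Robo4 had no peak within 1 kb of the start used. With the strongest annotated start, Robo1 was called in both comparisons, at -5.18 points from E11.5 to E17.5 (adjusted p = 0.0098) and 3.97 points in EPDCs (adjusted p = 0.016). In EPDCs Angptl4 was then called higher as well (13.9 points, adjusted p = 0.0026), against 1.82 points and no call at its most upstream start.

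The motif letters were also counted over the whole length of each region. AP-1 letters were present in 11 of the 28 regions that rose from E11.5 to E17.5 (39.3%) and in 5 of the 38 that fell (13.2%). Over all regions, 37.6% of those that rose and 20.2% of those that fell held them. In EPDCs they were in 3 of 33 higher regions (9.09%) and 14 of 49 lower ones (28.6%), against 17.2% and 34.1% over all regions with these calls. MAF letters were in 28.6% of the 28 rises and 50% of the 38 falls, against 40.7% and 41.8% over all regions. T-box letters were in 25% of the rises and 10.5% of the falls (26.9% and 19.2% over all), and in 9.09% of higher and 24.5% of lower regions in EPDCs (14.2% and 26.3% over all). None of these shares was tested. Without regard to direction, the ACGTG core was in 27.6% of the member regions tested and 27% of all. TEAD letters stood at 33.3% against 33.1% and MAF letters at 39.5% against 38.9%. GATA letters stood at 32.9% against 29.4% and T-box letters at 17.1% against 20.7%.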

How the data were processed

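Bulk ATAC-seq of the sorted cells was processed by the authors with nf-core atacseq 2.0 on mm10, and peaks were called per library with MACS2 2.2.9.1 in paired-end mode at a q of 0.01 with a row for each summit. In the deposited peak lists the score columns hold the -log10 p-value and the -log10 q-value of a peak, and the fold enrichment over local background is a linear ratio given as signal. No read counts were used here, and no depth is stated. Technical replicates of E13.5 EPDC sample 2 share 1 list and count as 1 library.

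Peaks on chromosomes 1 to 19, X and Y were ranked within each library by -log10 p. Regions of 250 bp to either side were placed on the strongest summits first with overlaps removed, and a region took the percentile of its strongest summit in each library. Genes came from GENCODE M21 and sequences from GRCm38.p6, and every peak end lay within its chromosome there. Regions or promoters called in at least 2 of 9 libraries were fitted with limma 3.58.1 (trend and robust, R 4.3.3), with p-values adjusted by Benjamini-Hochberg over all of them and called below 0.05; this replaced a count test because the files hold peaks. The EPDC contrast is EPDC minus the mean of the epicardial stage means. Exact permutation tests are two-sided over libraries and cannot go below 0.10 for 3 against 3 or 0.0119 for 3 against 6. The fit was tested on simulated data.

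Fragments at a summit were solved as the whole number that gives its fold enrichment and p together, to within 0.01, which succeeded for 89.9% to 99.5% of 1500 peaks sampled per library. The genome-wide background was 2.07 to 4.26 fragments in 8 libraries and 10.9 in E13.5 EPDC sample 2.

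The 10 genes, the pathway and marker lists and the motifs were chosen with earlier results of these data known. All 10 promoters are named, with the region of highest mean percentile, up to 2 called regions in each direction per gene and comparison, and the regions with printed sequence; of the pathway genes, the 8 with the largest called difference. Alternatives were another score (log2 of the score scaled to the library total, plus 1, or fold enrichment), equal numbers of top peaks, a -log10 q of at least 5, other filters, intervals for summits, other distances, starts and promoter widths, the replicate block and each library left out. The fragment ratio and the pathway counts under these alternatives were added after the data were seen. The sequence of 1 further promoter window is not reported here.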

Additional observations from a re-analysis of the deposited data

How the results depend on the processing

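The lists give peaks and no reads, so an uncalled region may hold signal under the threshold, and small differences between strong peaks are poorly resolved by rank. Of 83 calls at the named regions and promoters, 56 kept their call without each library in turn and 45 did so under every other planned setting as well, counting also regions that passed the filter only through the group where they were high. Under overlapping intervals in place of summits, the EPDC difference reversed at the Vegfa region 28 kb from the TSS (9.46 points) and at the Slit3 region 285 kb away (-7.55 points), and neither was then called; the cause was not tested.

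Counts of regions at the 10 genes stayed within 1.5 times the reported counts, except for the 38 regions that fell from E11.5 to E17.5, which were 22 with equal numbers of top peaks. Without each library in turn, they ranged from 28 to 49 for falls and 24 to 34 for rises, and from 35 to 54 and 24 to 41 for EPDC falls and rises.

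Promoter rises from E11.5 to E17.5 were 3 by log2 scaled score, where 3765 of all 14922 promoters rose, and 0 to 1 without each library. Promoter falls were 2 by log2 scaled score, by fold enrichment and with equal numbers of top peaks, and 2 to 3 without each library. Over all promoters, 1440 of 14922 fell by log2 scaled score, 1987 of 14922 by fold enrichment and 1515 of 14610 with equal numbers of top peaks. For EPDCs, promoter rises were 1 by fold enrichment and 1 to 2 without each library, and promoter falls 1 by fold enrichment. By fold enrichment, 2333 of all 14922 promoters rose in EPDCs and 962 fell. Loci whose EPDC peak rates did not overlap with epicardium were 3 at a -log10 q of at least 5 and 3 by intervals, and 1 to 4 without each library (5 to 7 between the stages). At a -log10 q of at least 5, Vegfc and Angpt1 were higher in EPDCs and Slit3 lower. By intervals, Vegfc and Hgf were higher and Slit3 lower. Shares of all genes are not given for these settings, so the counts are descriptions. With equal numbers of top peaks the count stayed at 1, but the locus was Angpt1 in place of Slit3 and its EPDC rates were higher, not lower. A p that missed the threshold does not show that values did not differ.

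For the other pathway genes, rises between the stages were 6 by log2 scaled score, 3 by fold enrichment and with equal numbers of top peaks, 2 in 500 bp promoters and 0 with any annotated start, and falls were 4 by fold enrichment, 5 with equal numbers of top peaks and 4 in 500 bp promoters. Without each library the rises stayed at 1 and the falls ranged from 6 to 9. In EPDCs, rises were 7 by log2 scaled score, where 2560 of all 14922 promoters rose, and 2 to 5 without each library, and falls 3 to 8.

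Same-numbered epicardial replicates did not deviate together (correlations of 0.014, 0.037 and -0.032), so the numbers did not pair the samples. With the replicate block, 32 regions at the 10 genes rose and 44 fell between the stages, and 1 promoter rose and 4 fell. Genome-wide, 15817 of 140636 regions then rose and 40177 fell, and 955 of 14486 promoters rose and 2502 fell.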
